A study of Homo sapiens with 12 samples.

Results

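Claudin-1, the product of CLDN1, and 8 further tight junction genes were followed across 4 groups of MDA-MB-231 cells. The 9 genes were taken from a list of symbols: the claudins CLDN1, CLDN4, CLDN7 and CLDN11, the membrane proteins OCLN, MARVELD2 and F11R, and the cytoplasmic scaffolds TJP1 and CGN. CLDN1 stood at the head of the list because its transcript differed from control in opposite directions in the 2 single knockdowns. The single knockdown values of the 9 genes are therefore given as a description, with no test. All 9 genes were found among the 60649 gene identifiers of the expression table, and all 9 were among the 17576 genes that passed the filter on low counts.

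MDA-MB-231 is an established line of human breast cancer cells with a mesenchymal, basal form. Cells were infected with lentivirus carrying a short hairpin RNA (shRNA) and sequenced as bulk RNA. The groups were a double knockdown of SIRT1 and IGF2BP2 (double KD), a SIRT1 knockdown (SIRT1 KD), an IGF2BP2 knockdown (IGF2BP2 KD) and a control with a sham-targeting shRNA, with 3 libraries in each. All 4 groups, control included, carried a lentiviral shRNA, were infected in 8 µg/mL Polybrene with virus made in HEK-293T cells, and were kept under 2.0 µg/mL puromycin in RPMI-1640 with 10% serum. The labels do not give the hairpin sequences, the number of hairpins per gene or whether a line came from 1 clone, so an effect of a knockdown and an effect of its hairpin or line cannot be told apart. The SIRT1 enzyme removes acetyl groups from proteins at the cost of NAD, and the IGF2BP2 protein binds mRNA and reads methylated adenosines in it.

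Tight junctions seal neighbouring epithelial cells together near their apical edge. Claudins form the strands that decide which ions and solutes pass between cells, occludin (OCLN), tricellulin (MARVELD2) and JAM-A (F11R) join them in the membrane, and ZO-1 (TJP1) and cingulin (CGN) tie the strands to actin. Breast cancer lines of the mesenchymal kind are known for low levels of several claudins and of E-cadherin.

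The 12 libraries held 15243152 to 22509142 reads in genes. Double KD replicate 2 was the shallowest, with 15243152 reads, stood farthest from its partners (SD of log2 differences 0.347, against 0.120 to 0.235 in the other 11 libraries) and had the lowest mitochondrial share, 1.18% against 1.99% to 2.57%. Control replicate 1 had reads in 37196 genes, against 27041 to 30018 in the others. SIRT1 averaged 404 ± 28.7 normalised counts in double KD, 527 ± 27.5 in SIRT1 KD, 728 ± 35.8 in IGF2BP2 KD and 834 ± 32.7 in control cells (SD, n = 3 each), so that the SIRT1 transcript in SIRT1 KD cells stood at 63.2% of control. IGF2BP2 averaged 864 ± 139.8, 3757 ± 35.4, 762 ± 69.6 and 3075 ± 44.5 normalised counts in the same order of groups. Of 6 mesenchymal markers of the line, VIM, CD44, AXL and FN1 had at least 8339 normalised counts in every library, S100A4 had 3163 to 6013 and SPARC 35.2 to 76.9. Of 9 luminal or epithelial markers, ESR1, PGR, ESRP1, GRHL2 and RAB25 stayed under 10 normalised counts in every library and CDH1, which encodes E-cadherin, between 0.89 and 24.1, whereas KRT19, ERBB2 and EPCAM were at 134 or more. The 4 markers of the HEK-293T packaging cells summed to at most 6.70 normalised counts in any library, and the 4 immune markers to at most 9.58.

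Sequences of 2 kinds are shown for the members that the values below turn on. The first kind are stretches of 3′ UTR, from the longest 3′ UTR of each gene in GENCODE 29 (GRCh38), printed 5′ to 3′ in the sense of the mRNA with T for U. IGF2BP proteins are known to favour the letters TGGAC, which are in capitals in the CLDN1 stretches. Capitals in the CLDN11, OCLN and MARVELD2 stretches mark CTCAGAT or TCAGATA, 7-mers that an earlier analysis of the same libraries had picked out because genes holding them were lower in SIRT1 KD cells, so that the match is no independent evidence.
CLDN1, chr3:190308220-190308242, minus strand, base 44 of its 3′ UTR: aaccgaaaaTGGACattgagata
CLDN1, chr3:190306018-190306040, minus strand, base 2246: atgaggaatTGGACctaataaat
CLDN11, chr3:170432948-170432971, plus strand, base 200: atctctagCTCAGATAatgcccag
OCLN, chr5:69554037-69554059, plus strand, base 374: accaccttTCAGATAactgttat
OCLN, chr5:69554913-69554935, plus strand, base 1250: tatgcattTCAGATAtttaggta
MARVELD2, chr5:69443423-69443445, plus strand, base 1777: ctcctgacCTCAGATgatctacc

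The 3′ UTR of CLDN11 holds both 7-mers overlapped into one 8-base stretch, OCLN holds TCAGATA in 2 places and MARVELD2 holds CTCAGAT once. The other 6 members, CLDN1 among them, hold neither. MARVELD2, unlike CLDN11 and OCLN, was not lower on average in SIRT1 KD than in control cells (119.6 and 102.5 normalised counts). Members with neither 7-mer went both ways. CGN (21.7 and 31.3), TJP1 (3241 and 3767) and CLDN7 (606 and 624) also averaged lower in SIRT1 KD cells, and CLDN1, CLDN4 and F11R higher. One or both of the 7-mers were in 20.0% of the 3′ UTRs of all 13124 genes tested that had one. They were in 15.3% of those near the length of the CLDN11 3′ UTR (at least 0.8 times as long and no more than the inverse of that). The share was 44.9% near the length of OCLN's and 28.0% near that of MARVELD2's. TGGAC was commoner. It was in 8 of the 9 members, with CLDN7 the exception, and in 63.6% of all genes, and in 82.8% of genes with a 3′ UTR near the length of CLDN1's. A match says only that the letters are there.

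The second kind are promoters, from 250 bases before to 50 after a RefSeq start (GRCh38.p14), found for 8 of the 9 members. They are printed for CLDN1 and CLDN7, which were lower together in the double KD and IGF2BP2 KD libraries. Capitals mark E-boxes (CACCTG or its reverse complement CAGGTG, the letters bound by SNAI and ZEB repressors) and GC boxes (GGGCGG or CCGCCC), looked for on both strands.
CLDN1, chr3:190322397-190322696, minus strand: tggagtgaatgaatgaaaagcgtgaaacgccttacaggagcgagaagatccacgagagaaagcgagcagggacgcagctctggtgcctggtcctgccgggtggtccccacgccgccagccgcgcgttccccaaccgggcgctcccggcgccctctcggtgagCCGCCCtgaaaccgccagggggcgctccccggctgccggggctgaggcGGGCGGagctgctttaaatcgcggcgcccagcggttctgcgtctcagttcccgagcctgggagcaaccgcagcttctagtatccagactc
CLDN7, chr17:7262429-7262728, minus strand: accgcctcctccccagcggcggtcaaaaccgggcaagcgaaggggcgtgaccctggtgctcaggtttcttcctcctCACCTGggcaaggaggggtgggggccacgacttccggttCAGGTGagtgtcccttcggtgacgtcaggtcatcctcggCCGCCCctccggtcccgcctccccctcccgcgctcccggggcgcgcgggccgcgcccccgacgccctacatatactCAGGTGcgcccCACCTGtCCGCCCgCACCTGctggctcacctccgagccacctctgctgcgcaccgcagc

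The CLDN1 promoter holds 2 GC boxes and no E-box, whereas this CLDN7 promoter holds 5 E-boxes and 2 GC boxes, and the promoter of the other CLDN7 start holds neither. An E-box was in 20.6% and a GC box in 45.0% of all 35116 promoters in the table.

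CLDN1 lies on chromosome 3 at 190305701 to 190322475, minus strand (GRCh38, GENCODE 29). Claudin-1 is a sealing claudin of skin and many other epithelia. Its transcript had 35.6, 43.9 and 62.9 normalised counts in double KD, 243, 241 and 256 in SIRT1 KD, 25.0, 32.1 and 46.0 in IGF2BP2 KD, and 123, 115 and 135 in control cells, each in the order of replicates 1 to 3. All double KD and IGF2BP2 KD libraries were below every control library and all SIRT1 KD libraries above every one, and the double KD and IGF2BP2 KD libraries overlapped. The mean was 38.2% of control in double KD, 199% in SIRT1 KD and 27.7% in IGF2BP2 KD cells. As log2 differences of log2(normalised count + 1), the single knockdowns stood at 0.99 and -1.86 against control and the SIRT1 KD at 2.85 against the IGF2BP2 KD.

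CLDN1 fell in double KD cells against control, by 1.40 on the log2 scale (SE 0.20, adjusted p = 3.26e-05). It also fell against SIRT1 KD cells, with a log2 difference of -2.39 (SE 0.20, adjusted p = 2.00e-07). Against IGF2BP2 KD cells the log2 difference was 0.46 with a 95% interval of 0.03 to 0.89, which did not pass (adjusted p = 0.0984). It passed without IGF2BP2 KD replicate 3 (0.69, adjusted p = 0.0186) and without double KD replicate 1 (0.64, adjusted p = 0.0228). All p-values are limma's with Benjamini-Hochberg adjustment over the 17576 genes. They measure the spread between these libraries, which the study calls independent runs without saying whether each was a separate infection. The fit used 1 estimate of spread shared by all groups, so the p-values can understate the spread of the double KD libraries. Those stood farther from their partners (SD of log2 differences 0.207 to 0.347) than the other libraries did (0.120 to 0.176). In fits of only the groups compared, CLDN1 passed against control (adjusted p = 0.000662) and SIRT1 KD cells (adjusted p = 6.92e-05). The stated reason for choosing CLDN1 rests on SIRT1 KD, IGF2BP2 KD and control libraries, which these tests use again. The genes were chosen with earlier results of these data known. The double KD libraries can therefore not be taken as held out from the choice. Without double KD replicate 2 the 3 log2 differences were -1.37, -2.36 and 0.49. The CLDN1 counts rest on 133, 747, 108 and 391 reads in the 3 libraries of double KD, SIRT1 KD, IGF2BP2 KD and control cells together. In bulk RNA, fewer cells with the transcript and less transcript per cell cannot be told apart.

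The summed epithelial markers moved beside CLDN1 in the single knockdowns, mainly through KRT19. In double KD libraries the sum ran from below to above the control range, unlike CLDN1. The 9 luminal or epithelial markers, of which 4 averaged at least 10 normalised counts, summed to 8401 to 12591 normalised counts in double KD, 12657 to 13948 in SIRT1 KD, 8914 to 9516 in IGF2BP2 KD and 11013 to 11374 in control libraries. Most of that sum was KRT19, a keratin of simple epithelia, which had 6220.2 to 9827, 10205 to 11202, 6573 to 7069 and 8385 to 8705 in the same order. EPCAM, an epithelial adhesion molecule, was at 134 to 199, 158 to 188, 216 to 243 and 227 to 239, and CDH1 at 0.89 to 13.7, 1.86 to 7.37, 12.5 to 24.1 and 11.6 to 17.2. EPCAM and CDH1 did not run with CLDN1: both were lower in SIRT1 KD than in control libraries, and their IGF2BP2 KD and control libraries overlapped. Their part in the CLDN1 result was not tested.

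**Figure D1:**
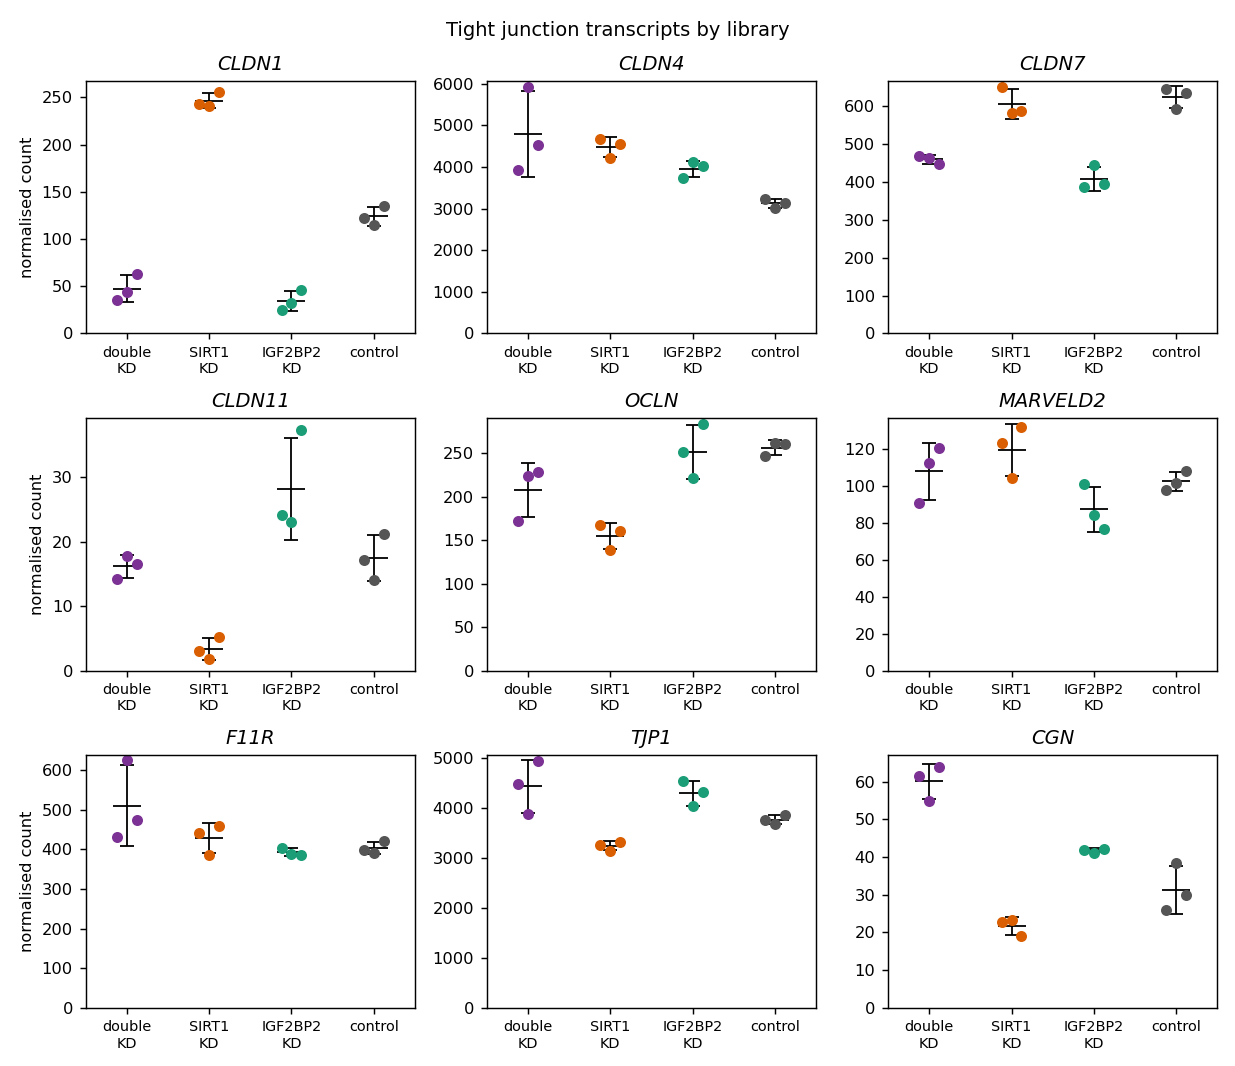
Normalised counts (vertical axes, starting at 0) of the 9 tight junction genes in the 12 libraries: points are libraries, bars the mean and SD of 3. CLDN1 sits at 35.6 to 62.9 in double KD, 241 to 256 in SIRT1 KD, 25.0 to 46.0 in IGF2BP2 KD and 115 to 135 in control cells, while CLDN11 has at most 5.26 in SIRT1 KD libraries and CGN is highest in double KD libraries.

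The other 3 claudins each took a course of their own. CLDN4 (chromosome 7, 73799542 to 73832693, plus strand) encodes a claudin known for tightening the barrier to sodium and for binding a Clostridium toxin. It had 3915, 5918 and 4523 normalised counts in double KD, 4675, 4216 and 4546 in SIRT1 KD, 3737, 4109 and 4022 in IGF2BP2 KD, and 3225, 3018 and 3132 in control cells. Every library of the 3 knockdown groups was above every control library, and the highest value was in double KD replicate 2. CLDN4 rose in double KD cells against control, by 0.59 on the log2 scale (SE 0.11, adjusted p = 0.000317). It was not called against SIRT1 KD (0.08, adjusted p = 0.665) or IGF2BP2 KD cells (0.25, adjusted p = 0.0785). Without double KD replicate 1 the last difference was 0.39 and passed (adjusted p = 0.00283).

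CLDN7 (chromosome 17, 7259903 to 7263983, minus strand) encodes a claudin that also sits along the lateral membrane. It had 469, 464 and 446 normalised counts in double KD, 651, 580.4 and 586 in SIRT1 KD, 385, 445 and 394 in IGF2BP2 KD, and 644, 592 and 636 in control cells. The double KD and IGF2BP2 KD libraries were all below the SIRT1 KD and control libraries, which overlapped each other. CLDN7 fell in double KD cells against control (log2 difference -0.44, SE 0.08, adjusted p = 0.000366) and against SIRT1 KD cells (-0.40, adjusted p = 0.00165). Against IGF2BP2 KD cells it stood at 0.17 (adjusted p = 0.117), and it passed without IGF2BP2 KD replicate 2 (0.24, adjusted p = 0.0476). CLDN7 overlaps ELP5 on the opposite strand, which drew 7351 reads in the 12 libraries against 6388 for CLDN7. The sources used here do not say that counting used strand, so reads of the overlap cannot be told apart.

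CLDN11 (chromosome 3, 170418865 to 170454733, plus strand) encodes the claudin of myelin and of Sertoli cell junctions. It had the fewest reads of the 9, with 14.2, 17.8 and 16.5 normalised counts in double KD, 2.98, 1.86 and 5.26 in SIRT1 KD, 24.1, 23.1 and 37.4 in IGF2BP2 KD, and 17.2, 14.0 and 21.2 in control cells. The SIRT1 KD libraries, with 10 reads among them, were below all others, the IGF2BP2 KD libraries were above all others, and double KD and control overlapped. CLDN11 rose in double KD cells against SIRT1 KD cells, by 2.05 on the log2 scale (SE 0.32, adjusted p = 0.000156). It stood at -0.09 against control (adjusted p = 0.863) and at -0.74 against IGF2BP2 KD (95% interval -1.41 to -0.06, adjusted p = 0.0927), which passed in edgeR's quasi-likelihood test (-0.82, adjusted p = 0.0294). At such low counts the added 1 shrinks a difference: the SIRT1 KD against control value was -2.14 with 1 added and -1.56 with 4 added. Of 5 markers of the cell types known for CLDN11, 3 averaged at least 10 normalised counts. The 5 summed to 3844 to 4094 in double KD, 4407 to 4795 in SIRT1 KD, 3975 to 4058 in IGF2BP2 KD and 4486 to 4583 in control libraries, but the myelin gene MOG stayed at 1.92 or less and SOX10 at 21.4 or less. Most of each sum thus came from the other markers of the list, which are not named here.

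OCLN (chromosome 5, 69492292 to 69558104, plus strand) encodes occludin, the first membrane protein found in tight junctions. It had 172, 224 and 228 normalised counts in double KD, 167, 138 and 160.0 in SIRT1 KD, 251, 221 and 283 in IGF2BP2 KD, and 246, 261 and 260.4 in control cells. The SIRT1 KD libraries were the lowest and overlapped none of the other groups, the double KD libraries lay below all control libraries, and IGF2BP2 KD overlapped both double KD and control. OCLN rose in double KD against SIRT1 KD cells (0.41, SE 0.12, adjusted p = 0.0221). That call failed when SIRT1 KD replicate 2 (0.33, adjusted p = 0.112) or double KD replicate 3 (0.34, adjusted p = 0.0875) was left out. Against control the log2 difference of -0.31 did not pass (adjusted p = 0.0613). It passed without double KD replicate 2 (-0.37, adjusted p = 0.00997), without double KD replicate 3 (-0.38, adjusted p = 0.0414) and in edgeR (-0.31, adjusted p = 0.0492). Against IGF2BP2 KD the value was -0.28 (adjusted p = 0.0972), and -0.34 without double KD replicate 2 (adjusted p = 0.0206). The OCLNP1 pseudogene had 26 reads in all libraries, against 2649 for OCLN.

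MARVELD2 (chromosome 5, 69415065 to 69444330, plus strand) encodes tricellulin, which closes the corners where 3 cells meet. It had 90.8 to 121 normalised counts in double KD, 104 to 132 in SIRT1 KD, 76.7 to 101 in IGF2BP2 KD and 97.7 to 108 in control libraries, and the SIRT1 KD libraries lay above all IGF2BP2 KD libraries while the other groups overlapped. None of its 3 double KD differences passed: 0.07 against control (95% interval -0.24 to 0.37), -0.15 against SIRT1 KD (-0.45 to 0.16) and 0.30 against IGF2BP2 KD (0.00 to 0.61). The last one passed without double KD replicate 1 (0.42, adjusted p = 0.0382).

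F11R (chromosome 1, 160995211 to 161021348, minus strand) encodes JAM-A, an immunoglobulin-like adhesion molecule that recruits polarity proteins. It had 433, 626 and 474 normalised counts in double KD, 441, 387 and 459 in SIRT1 KD, 405, 389 and 385 in IGF2BP2 KD, and 397, 392 and 420.5 in control cells. The double KD libraries lay above the IGF2BP2 KD and control libraries, with replicate 2 far above its partners. F11R was called higher in double KD cells against control (0.32, adjusted p = 0.0314) and against IGF2BP2 KD cells (0.36, adjusted p = 0.0191). Both calls were lost without double KD replicate 2, the library that stands apart (0.17, adjusted p = 0.121, and 0.20, adjusted p = 0.0574). The call against control was also lost without any one control library (0.30 to 0.35, adjusted p 0.0534 to 0.0947) and the call against IGF2BP2 KD without IGF2BP2 KD replicate 2 or 3 (0.35, adjusted p 0.0554 and 0.0634). A fit of only the double KD and control libraries lost the call against control as well (adjusted p = 0.0979). Against SIRT1 KD cells F11R stood at 0.24 (adjusted p = 0.142), and at 0.35 without double KD replicate 1 (adjusted p = 0.0284).

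TJP1 (chromosome 15, 29699367 to 29968865, minus strand) encodes ZO-1, the scaffold that binds claudin tails and actin. It had 4480.0, 3889.5 and 4942 normalised counts in double KD, 3257, 3145 and 3320.4 in SIRT1 KD, 4543, 4037 and 4313 in IGF2BP2 KD, and 3754, 3682 and 3865 in control cells. The SIRT1 KD libraries were lowest, the double KD and IGF2BP2 KD libraries were all above control, and these last groups overlapped. TJP1 rose in double KD cells against SIRT1 KD cells (0.45, SE 0.08, adjusted p = 0.000333). Its call against control (0.23, adjusted p = 0.0260) was lost without any one control library or without double KD replicate 1 or 3, down to 0.15 (adjusted p = 0.144) without replicate 3. That call was also lost in a fit of only the double KD and control libraries (adjusted p = 0.0901). Against IGF2BP2 KD cells the difference was 0.04 (adjusted p = 0.731). The HMGN2P5 pseudogene, which overlaps TJP1 on the opposite strand, had 1319 reads in all libraries, against 47965 for TJP1.

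CGN (chromosome 1, 151510510 to 151538692, plus strand) encodes cingulin, a coiled-coil protein that binds ZO-1 and holds the exchange factor GEF-H1 at the junction. It had 61.4, 54.9 and 63.9 normalised counts in double KD, 22.8, 23.2 and 18.9 in SIRT1 KD, 41.9, 41.2 and 42.2 in IGF2BP2 KD, and 25.9, 38.3 and 29.9 in control cells. The 4 groups did not overlap, with double KD highest and SIRT1 KD lowest. CGN rose in double KD cells against control, by 0.93 on the log2 scale (SE 0.19, adjusted p = 0.000716), and against SIRT1 KD cells, by 1.43 (SE 0.19, adjusted p = 2.08e-05). It was also called higher against IGF2BP2 KD cells (0.51, adjusted p = 0.0439). That call was lost without 8 of the 12 libraries, one at a time: each IGF2BP2 KD library, double KD replicate 1 or 3, control replicate 3 and SIRT1 KD replicate 1 or 2 (0.47 to 0.52, adjusted p 0.0502 to 0.116).

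**Figure D2:**
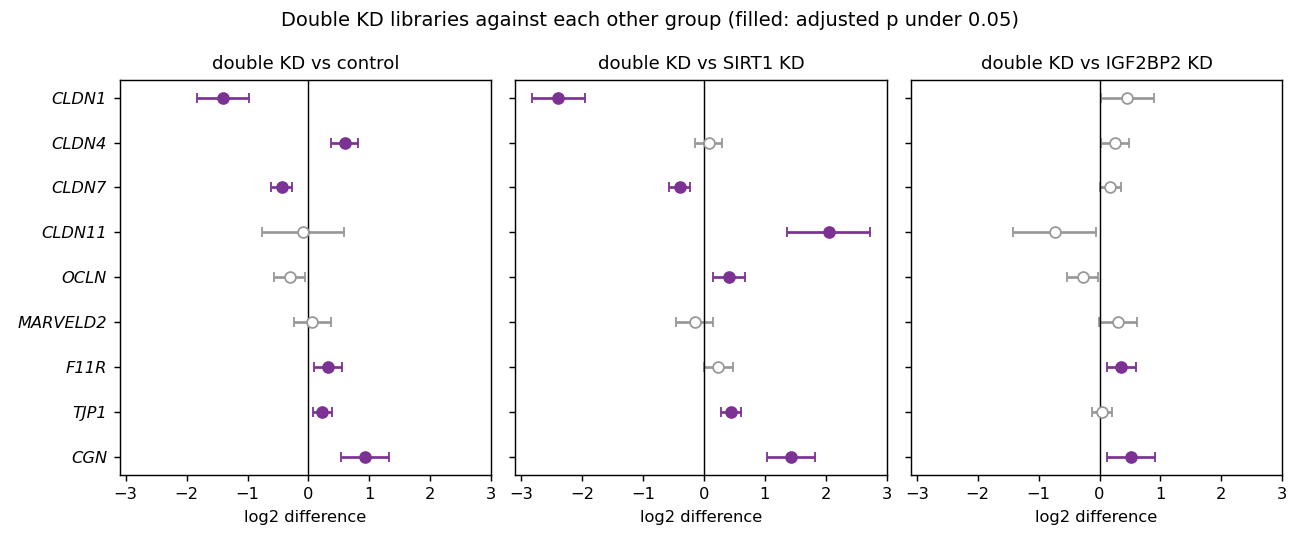
Log2 differences (horizontal axes, double KD minus the other group) of double KD libraries against control, SIRT1 KD and IGF2BP2 KD libraries, with 95% intervals; filled points passed adjusted p under 0.05. CLDN1 is at -1.40 and -2.39 against control and SIRT1 KD and at 0.46, not called, against IGF2BP2 KD, while CGN is to the right of 0 in all 3 panels.

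Against control, 4 of the 9 members were called higher in double KD cells (CLDN4, F11R, TJP1 and CGN) and 2 lower (CLDN1 and CLDN7), where 34.2% of all genes tested were called (16.7% higher and 17.5% lower). Against SIRT1 KD cells 4 were called higher (CLDN11, OCLN, TJP1 and CGN) and 2 lower (CLDN1 and CLDN7), beside 22.6% of all genes (11.9% higher and 10.7% lower). Against IGF2BP2 KD cells 2 were called, F11R and CGN, both higher, beside 31.6% of all genes (16.4% higher). The median log2 differences over the 9 members were 0.07, 0.24 and 0.25 in these comparisons, against 0.01, 0.02 and 0.01 over all genes. Without double KD replicate 2 the counts were 6, 6 and 2, with OCLN in place of F11R in the first and last.

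The genes were chosen on the single knockdowns, so the counts there are a description and nothing is read from them. With CLDN1 included, 5 of the 9 members were past the same threshold in SIRT1 KD cells against control, 2 higher and 3 lower (28.6% of all genes, 12.9% higher and 15.7% lower). In IGF2BP2 KD cells against control 3 were, 1 higher and 2 lower (16.3% of all genes, 6.86% higher and 9.39% lower), and between SIRT1 KD and IGF2BP2 KD cells 7 were, 3 higher and 4 lower (38.6%, 19.3% in each direction). Without CLDN1 they were 4, 2 and 6 of 8. The log2 differences from control in SIRT1 KD cells were 0.99 for CLDN1, 0.52 for CLDN4, -0.04 for CLDN7, -2.14 for CLDN11, -0.72 for OCLN, 0.21 for MARVELD2, 0.09 for F11R, -0.22 for TJP1 and -0.50 for CGN. In IGF2BP2 KD cells they were -1.86 for CLDN1, 0.34 for CLDN4, -0.61 for CLDN7, 0.64 for CLDN11, -0.03 for OCLN, -0.24 for MARVELD2, -0.04 for F11R, 0.19 for TJP1 and 0.42 for CGN. The 2 comparisons share the control libraries. CLDN1, CLDN11, MARVELD2, F11R, TJP1 and CGN had opposite signs in them, and CLDN4, CLDN7 and OCLN the same sign.

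The interaction asks whether the step from SIRT1 KD to double KD differed from the step from control to IGF2BP2 KD. It partly uses the comparisons the genes were chosen on. CGN was the 1 member called, at 1.01 (SE 0.26, adjusted p = 0.0469), where 2.86% of all genes were called (1.7% higher and 1.16% lower). Its own steps were 1.43 for double KD against SIRT1 KD and 0.42 for IGF2BP2 KD against control. The call was lost without 9 of the 12 libraries, one at a time (0.86 to 1.06, adjusted p 0.0774 to 0.150), that is without control replicate 2 or 3, double KD replicate 3 or any SIRT1 KD or IGF2BP2 KD library. CLDN1 stood at -0.53 (95% interval -1.14 to 0.08, adjusted p = 0.352). Without double KD replicate 2, CLDN4 (-0.43, adjusted p = 0.000555) and TJP1 (0.35, adjusted p = 0.00316) were called too, and without double KD replicate 1 OCLN was (0.58, adjusted p = 0.0441).

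Divided by the exon length of each gene, the levels of the members lay far apart. In control cells the order in normalised counts per kb was CLDN4 at 665 ± 22.0, TJP1 at 334 ± 8.18, CLDN7 at 250.4 ± 11.2, F11R at 79.6 ± 2.97, OCLN at 37.9 ± 1.27, CLDN1 at 33.9 ± 2.77, MARVELD2 at 19.1 ± 0.97, CGN at 4.74 ± 0.959 and CLDN11 at 4.69 ± 0.967 (SD, n = 3). The libraries of OCLN and CLDN1 overlapped, as did those of CGN and CLDN11. CLDN4, TJP1, CLDN7 and F11R held ranks 1 to 4 in all 4 groups. CLDN1 ranked 7 in double KD (12.96 ± 3.81 per kb), 5 in SIRT1 KD (67.3 ± 2.23), 7 in IGF2BP2 KD (9.39 ± 2.92) and 6 in control cells. Its libraries overlapped those of MARVELD2 above it in double KD and those of CLDN11 below it in IGF2BP2 KD, but no neighbour in SIRT1 KD. The level of CLDN4 per kb was 78.5 times that of CLDN1 in double KD, 14.2 times in SIRT1 KD, 89.6 times in IGF2BP2 KD and 19.6 times in control cells.

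**Figure D3:**
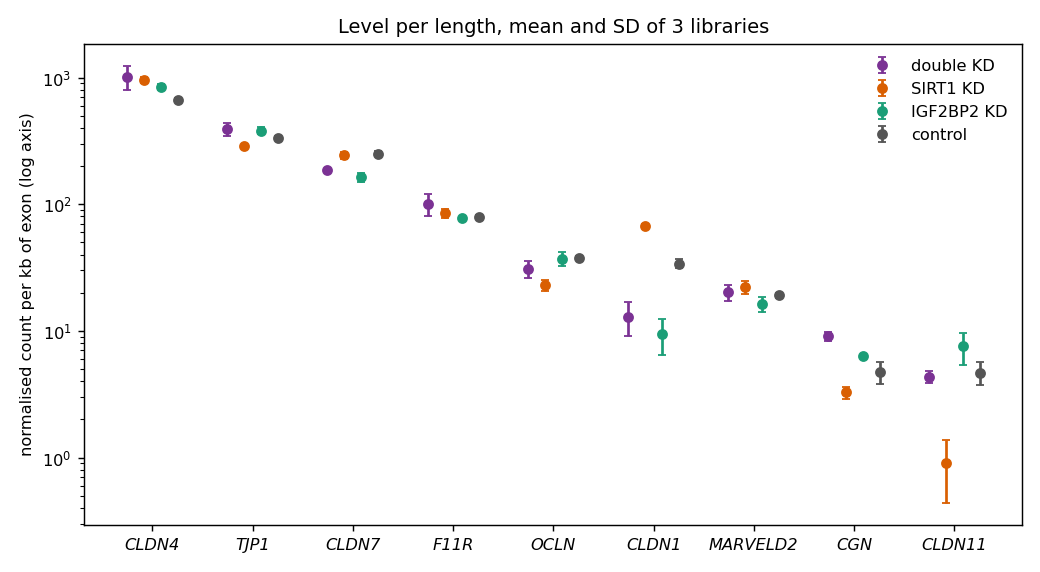
Mean normalised count per kb of exon (log axis) with the SD of 3 libraries, for each member in the 4 groups, ordered by the control level. CLDN4 leads in every group, and CLDN1 spans 9.39 in IGF2BP2 KD to 67.3 in SIRT1 KD cells.

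Over the 12 libraries, the genes whose log2 levels ran most like CLDN1 among 11012 that averaged at least 100 normalised counts were TRIM25 (Pearson r = 0.986), EIF2D (0.983), BTG1 (0.982), GLYR1 (0.980) and DNPEP (0.979). Of the junction genes they were ARHGEF2 (0.972), which encodes GEF-H1, KLF4 (0.968), an epithelial transcription factor, and NECTIN3 (0.919), an adhesion molecule of adherens junctions. BTG1, for one, averaged 1972 normalised counts in double KD, 3638 in SIRT1 KD, 1718 in IGF2BP2 KD and 2612 in control cells. Among the members r with CLDN1 was 0.873 for CLDN7 and 0.593 for MARVELD2, and it was negative for TJP1 (-0.833), CGN (-0.833), CLDN11 (-0.779) and OCLN (-0.504). For CLDN4 (-0.077) and F11R (-0.095) it was small. These correlations are descriptions: the 12 points fall into 4 groups and share their libraries and scaling.

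The surrounding junction genes were taken from lists of 106 genes outside the 9 members, of which 79 passed the filter on low counts. In double KD cells against control 15 of the 79 were called higher and 13 lower (35.4%, against 34.2% of all genes). In SIRT1 KD cells against control 19 were higher and 12 lower (39.2%, against 28.6%), and in IGF2BP2 KD cells 7 were higher and 12 lower (24.1%, against 16.3%). Without double KD replicate 2 the counts called were 32, 38 and 27. Without control replicate 1 they were 20, 24 and 13.

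Of 9 other claudins tested, 4 were called in double KD cells against control, all lower, with a median log2 difference of -0.34 over the 9 (17.5% of all genes were called lower). CLDN2, a pore-forming claudin that lets cations pass, had 73.0, 52.2 and 60.8 normalised counts in double KD, 87.4, 65.9 and 94.7 in SIRT1 KD, 228, 243 and 285 in IGF2BP2 KD, and 184, 182 and 181 in control cells. It fell in double KD (-1.56, adjusted p = 2.41e-07) and SIRT1 KD cells (-1.15, adjusted p = 1.25e-05) against control. It was called higher in IGF2BP2 KD cells (0.46, adjusted p = 0.0445), a call lost without any control or IGF2BP2 KD library or SIRT1 KD replicate 1 (0.37 to 0.53, adjusted p 0.0570 to 0.201). So CLDN2 and CLDN1 stood on opposite sides of control in both single knockdowns and on the same side in the double KD. CLDN12 fell in double KD (-0.90, adjusted p = 4.10e-07) and IGF2BP2 KD cells (-1.01, adjusted p = 4.04e-07), and CLDN23 fell in double KD cells (-0.67, adjusted p = 0.000315). CLDN15 was called lower there too (-0.34, adjusted p = 0.0394), a call that was lost in edgeR (adjusted p = 0.0526), in DESeq2 (adjusted p = 0.0584) and without any of 9 of the libraries, one at a time, the others being IGF2BP2 KD replicates 1 and 2 and double KD replicate 1 (-0.36 to -0.24, adjusted p 0.0521 to 0.103).

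Other membrane proteins and scaffolds were mixed. Among 8 other tight junction membrane proteins, 3 were called lower and none higher in double KD cells against control (17.5% and 16.7% of all genes). CXADR, the receptor of coxsackie and adenoviruses, had 317, 229 and 322 normalised counts in double KD, 539, 539.6 and 613 in SIRT1 KD, 282, 254 and 298 in IGF2BP2 KD, and 679.9, 654 and 713 in control cells. It fell in double KD (-1.25, adjusted p = 1.20e-07) and IGF2BP2 KD cells (-1.29, adjusted p = 3.49e-07), and so did its relative CLMP (-0.52, adjusted p = 0.00019, and -0.47, adjusted p = 0.00131). Among 18 scaffold and signalling genes, 6 were higher and 1 lower in double KD cells, beside the same shares of all genes. USP53, a tight junction protein related to deubiquitinases, rose in double KD (0.50, adjusted p = 0.00025) and SIRT1 KD cells (0.75, adjusted p = 4.08e-06), and TJP3, which encodes ZO-3, fell in SIRT1 KD cells (-0.87, adjusted p = 0.00299). YBX3, which encodes the ZO-1 partner ZONAB, rose in SIRT1 KD (0.44, adjusted p = 8.67e-05) and fell in IGF2BP2 KD cells (-0.31, adjusted p = 0.00392).

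Polarity genes, adherens junctions and regulators completed the lists. Against control, 34.2% of all genes were called in double KD, 28.6% in SIRT1 KD and 16.3% in IGF2BP2 KD cells. Of 15 polarity genes 2 were higher and none lower in double KD, 5 higher and 1 lower in SIRT1 KD, and 2 higher and 1 lower in IGF2BP2 KD cells. PARD6A rose in double KD (0.74, adjusted p = 0.00212) and SIRT1 KD cells (0.76, adjusted p = 0.00211). Of 19 adherens junction and desmosome genes 6 were higher and 4 lower in double KD cells, 4 and 4 in SIRT1 KD cells, and 2 and 2 in IGF2BP2 KD cells. DSP, which encodes desmoplakin, rose in SIRT1 KD (0.48, adjusted p = 1.09e-05) and fell in IGF2BP2 KD cells (-0.39, adjusted p = 0.000243), and NECTIN3 fell in double KD (-0.59, adjusted p = 2.84e-05) and IGF2BP2 KD cells (-0.51, adjusted p = 0.00034). PKP3, a desmosomal plaque protein, rose in double KD cells (0.84, adjusted p = 8.99e-05).

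Of 10 transcriptional regulators of junction genes 2 were called in double KD, 7 in SIRT1 KD and 4 in IGF2BP2 KD cells (34.2%, 28.6% and 16.3% of all genes). They were 1 higher and 1 lower in double KD, 4 and 3 in SIRT1 KD, and 1 and 3 in IGF2BP2 KD cells. The repressors SNAI1 (-1.28, adjusted p = 0.000777) and SNAI2 (-0.50, adjusted p = 0.000766) and the epithelial factor ELF3 (-1.05, adjusted p = 1.78e-05) fell in SIRT1 KD cells, whereas the repressor ZEB2 rose there (0.73, adjusted p = 8.54e-05). KLF4 fell in IGF2BP2 KD cells (-0.48, adjusted p = 0.000132). It averaged 954 normalised counts in double KD, 1433 in SIRT1 KD, 805 in IGF2BP2 KD and 1121 in control cells. SNAI1 was low throughout, at 22.0 ± 2.48 normalised counts in double KD, 13.4 ± 5.24 in SIRT1 KD, 31.7 ± 0.815 in IGF2BP2 KD and 32.7 ± 4.28 in control cells (SD, n = 3 each). Whether any of these regulators acted on the members was not tested.

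**Figure D4:**
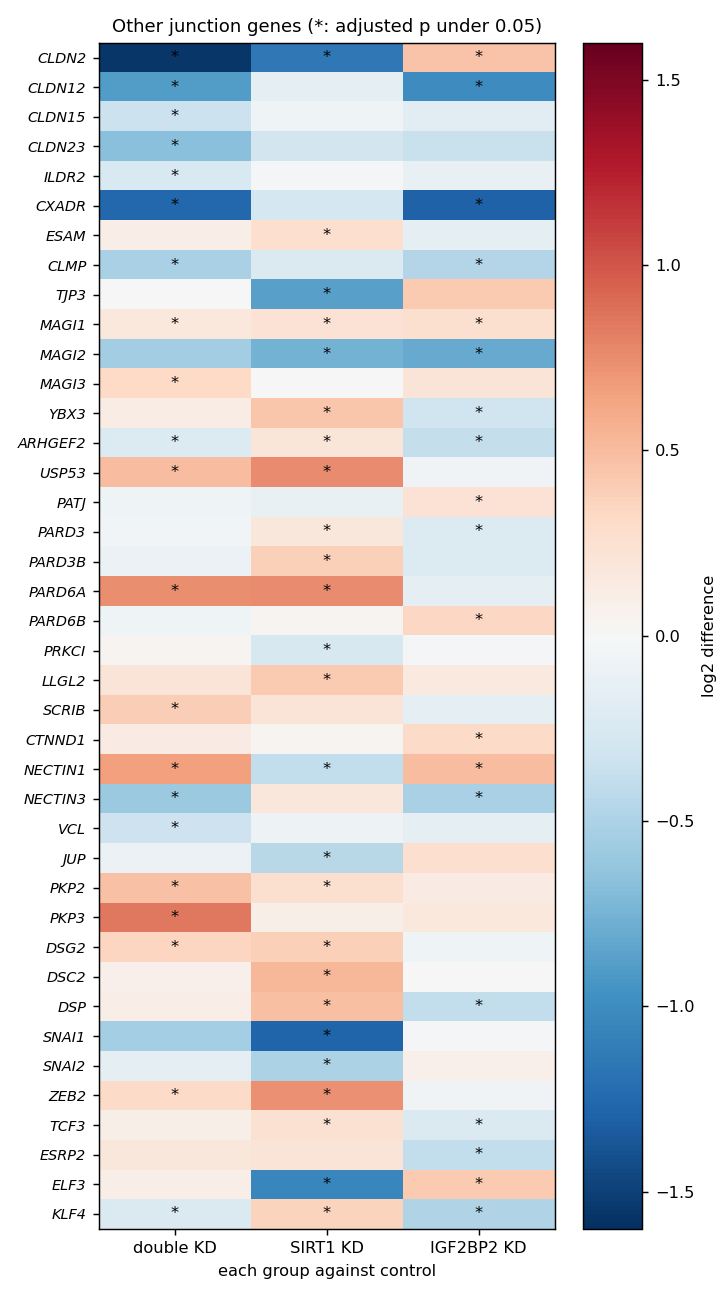
Log2 differences from control (colour, scale at right) in double KD, SIRT1 KD and IGF2BP2 KD cells for 40 other junction genes named by rule in these comparisons, with a star where adjusted p was under 0.05. CLDN2 is at -1.56, -1.15 and 0.46, and CXADR and CLDN12 are lower in double KD and IGF2BP2 KD cells.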

How the data were processed

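Per the labels' protocols, libraries were built from 1 µg of total RNA with a New England Biolabs kit. Per the submitters' processing notes the tools were CASAVA, STAR and DESeq2 and the build GRCh38.p13, with no versions or strand setting. The authors deposited normalised counts per gene, a signal whose steps in the files fit whole reads divided by 1 factor per library, and a second table of log2 ratios to control. Columns were assigned to the 4 groups from their letter codes and replicate numbers. The assignment was checked against the fully named log2 ratio table over 11137 genes: SD of the difference at most 0.00365 for a column's own sample and at least 0.118 for any other. A table of raw counts with 12 unnamed columns was not used. The steps of the normalised counts gave whole reads for 100% of values in every library (tolerance 0.001), 15243152 to 22509142 per library.

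Differences were tested with limma 3.58.1 (trend and robust) in R 4.3.3 on log2(normalised count + 1), over the 17576 genes kept by edgeR's filterByExpr (minimum count 10), with all 12 libraries and 1 mean per group, and Benjamini-Hochberg adjustment, called at adjusted p under 0.05. The script was tested on simulated data. edgeR 4.0.16 and DESeq2 1.42.0 on the recovered reads, other pseudocounts, filters and scaling, the authors' log2 ratios and leaving out each library were alternatives. Same-numbered libraries did not deviate together (residual correlations -0.193 to 0.0996), so numbers were not taken as pairs.

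Named were the 9 members, the 2 targets, up to 4 called genes with the smallest adjusted p per junction list and comparison, and the 5 genes and 3 junction genes most like CLDN1. The text gives a choice of these, and some are not reported here. The members and lists were chosen with earlier results of these data known. With counts as low as 10 reads per group, precision is limited by counting error. Sequences came from RefSeq (GRCh38.p14) and GENCODE 29.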

Additional observations from a re-analysis of the deposited data

Results flagged for a closer look

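The interaction test in limma asks whether the effect of one knockdown differed with the other knockdown present. It called 3 junction genes: 1 of the 9 members and 2 of the 79 other junction genes (2.53%). That share is near the 2.86% called over all genes. The test partly uses the comparisons the genes were chosen on. CGN stood at 1.01 (SE 0.26, adjusted p = 0.0469), with 61.4, 54.9 and 63.9 normalised counts in double KD and 22.8, 23.2 and 18.9 in SIRT1 KD cells, beside 41.9, 41.2 and 42.2 in IGF2BP2 KD and 25.9, 38.3 and 29.9 in control cells. Its call was lost without 9 of the 12 libraries, one at a time (0.86 to 1.06, adjusted p 0.0774 to 0.150), in DESeq2 (adjusted p = 0.0551), with a replicate block (adjusted p = 0.0597) and with no filter (adjusted p = 0.139). CLDN2 stood at -0.86 (SE 0.21, adjusted p = 0.0358), with a log2 difference of 0.46 for IGF2BP2 KD against control but -1.56 for double KD against control. Its call was lost without any control library, SIRT1 KD replicate 1 or 3, IGF2BP2 KD replicate 2 or 3, or double KD replicate 3 (-0.89 to -0.76, adjusted p 0.0521 to 0.116), without trend and robust settings (adjusted p = 0.0959) and from the authors' deposited table of log2 ratios (adjusted p = 0.0660). PARD6B, a polarity scaffold, stood at -0.44 (SE 0.09, adjusted p = 0.0169). It had 1727, 1803 and 1847 normalised counts in double KD, 1921, 1807 and 2063 in SIRT1 KD, 2424, 2275 and 2376 in IGF2BP2 KD, and 1861, 1812 and 1950.0 in control cells. Its call was lost without control replicate 1 or 2, SIRT1 KD replicate 1 or 3, or IGF2BP2 KD replicate 3 (-0.44 to -0.39, adjusted p 0.0515 to 0.0733), and likewise under those settings (adjusted p = 0.0699 and 0.0596). All 3 calls rest on 3 libraries a group.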

How the results depend on the processing

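There were 178 gene results, each recomputed under up to 23 alternatives (4072 values). Of these values 3823 were counted as unchanged, 235 lost a call, 12 gained one and 2 moved in size. No called result reversed. A change of sign where neither fit passed was counted as unchanged, as for CLDN4 in double KD against SIRT1 KD cells (-0.09 to 0.21 with libraries left out). Members in comparisons without double KD libraries were judged on size, so their lost calls are not among the 235. The fall of CLDN1 in double KD cells held under every alternative run, between -1.62 and -1.22 against control and between -2.61 and -2.21 against SIRT1 KD cells when each library was left out. Against IGF2BP2 KD cells CLDN1 ranged from 0.24 to 0.69 and in the interaction from -0.75 to -0.30. Adding a replicate block, although the numbers did not pair the libraries, brought CLDN1 in double KD against IGF2BP2 KD cells past the threshold (0.46, adjusted p = 0.0433) and took the 1 member called in the interaction to 0. Members called in double KD against IGF2BP2 KD cells (2) were 1 without a filter, with a mean of at least 50 normalised counts, without trend and robust settings and in DESeq2, and 0 in a fit of only the groups compared. The interaction's 1 member became 0 without a filter, with the mean of at least 50 and in DESeq2. With 1 library left out at a time, members called in double KD cells ranged from 4 to 6 against control. They ranged from 5 to 7 against SIRT1 KD and 1 to 4 against IGF2BP2 KD cells, and 0 to 3 in the interaction. Members past the threshold were 4 to 6 in SIRT1 KD and 2 to 4 in IGF2BP2 KD against control. In SIRT1 KD against IGF2BP2 KD cells they were 6 to 8. The genes were chosen on the single knockdowns, so the counts without double KD libraries are a description and nothing is read from them. Other junction genes called ranged from 20 to 32, 19 to 35, 19 to 33, 0 to 12, 24 to 38, 12 to 27 and 31 to 43 in the same 7 comparisons, and all genes called from 4760 to 7070, 2806 to 5132, 4394 to 6451, 116 to 1765, 3911 to 7017, 1860 to 5028 and 5563 to 8599. A fit of only the groups compared called 7784 genes in SIRT1 KD and 5122 in IGF2BP2 KD cells against control (5030 and 2857 over all groups), and 2251 and 3640 in double KD against SIRT1 KD and IGF2BP2 KD cells (3980 and 5550). It called 30 other junction genes in IGF2BP2 KD against control (19 over all groups), 16 in double KD against control (28) and 15 in double KD against SIRT1 KD cells (32). In the interaction, all genes called (503) were 135 without trend and robust settings, 919 in DESeq2 and 276 from the authors' log2 ratios, and other junction genes (2) were 0, 7 and 0. The cause of these shifts was not tested. CLDN11 (199 reads in all libraries) and CGN (468) have the fewest reads of the members, so counting error weighs most on them.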
